A study of Mus musculus with 34 samples.

Results

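The immediate early response genes Fos, Fosb, Jun, Junb, Egr1, Ier2, Atf3, Dusp1, Nr4a1 and Zfp36 were followed across hepatocytes and liver macrophages of 19 mice, 15 of which gave both cell types. The 10 genes were chosen by symbol, as rows of the deposited count tables, and all 10 were found among the 24951 genes of the hepatocyte table and the 26233 genes of the macrophage table. The study deleted the transcriptional coactivators YAP and TAZ and injured the liver with carbon tetrachloride (CCl4), a toxicant that hepatocytes convert to a reactive radical. Knockout mice were Opn-CreERt2 Yapfl/fl Tazfl/fl, with an inducible Cre recombinase driven by the osteopontin promoter, and the series describes the deletion as specific to biliary epithelial cells. Control mice were Yap fl/fl Taz fl/fl siblings without the Cre driver. All groups were of a B6;129P mixed background and all received tamoxifen, at 1.6 mg/kg on 5 days from an age of 7 to 8 weeks, followed by a washout of 3 weeks. The CCl4 groups received 1 ml/kg, and livers were harvested 48 h later. The groups without CCl4 received tamoxifen alone, and the labels name no injection of vehicle. There were hepatocytes of 6 controls and 5 knockouts given no CCl4 and of 3 controls and 4 knockouts given it, and macrophages of 4 mice per condition. Neither sorted population is the cell type in which the deletion was directed, so no value here checks the deletion.

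Immediate early genes are transcribed within minutes of a stimulus from factors already present in the cell, and their messages are short-lived. FOS, FOSB, JUN and JUNB, together with ATF3, are basic leucine zipper proteins that pair to form AP-1 and related dimers, while DUSP1 and ZFP36 act as brakes, the first by dephosphorylating MAP kinases and the second by binding AU-rich messages and speeding their decay. The same genes are also known to be induced while a liver is digested and its cells are sorted, so their level in a sorted population can report both the state of the tissue and its handling. Hepatocytes and macrophages both went through perfusion with pronase and collagenase. Hepatocytes were then separated on Percoll and sorted for the absence of propidium iodide, whereas macrophages were stained with antibodies and sorted as F4/80+ CD45+ cells, so cell type and isolation route cannot be told apart.

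The promoters of these genes are known for the cyclic AMP response element (CRE), through which CREB and ATF proteins act. Sequences for 8 of the 10 genes were matched by symbol in the RefSeq promoter table (GRCm38.p6), and the 250 bases before each annotated start were searched. Shown here are 4 of them, chosen because the window overlaps no annotated exon, 5′ to 3′ on the strand of the gene. Capitals mark a CRE half-site (TGACG, or CGTCA on the other strand), a CRE-like element (TGACNTCA or TGANGTCA) or a TATA match (TATAAA).
Fos, chr12:85473640-85473889, plus strand: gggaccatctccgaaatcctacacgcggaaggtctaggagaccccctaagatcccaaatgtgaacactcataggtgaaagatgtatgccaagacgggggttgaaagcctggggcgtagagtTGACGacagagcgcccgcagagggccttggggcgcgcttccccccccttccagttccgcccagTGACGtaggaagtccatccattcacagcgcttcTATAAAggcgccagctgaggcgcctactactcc
Jun, chr4:95052223-95052472, minus strand: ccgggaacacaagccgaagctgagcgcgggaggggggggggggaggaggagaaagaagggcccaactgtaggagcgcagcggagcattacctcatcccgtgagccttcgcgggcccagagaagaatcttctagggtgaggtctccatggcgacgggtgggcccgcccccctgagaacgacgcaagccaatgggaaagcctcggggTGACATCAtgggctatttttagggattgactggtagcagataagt
Junb, chr8:84978749-84978998, minus strand: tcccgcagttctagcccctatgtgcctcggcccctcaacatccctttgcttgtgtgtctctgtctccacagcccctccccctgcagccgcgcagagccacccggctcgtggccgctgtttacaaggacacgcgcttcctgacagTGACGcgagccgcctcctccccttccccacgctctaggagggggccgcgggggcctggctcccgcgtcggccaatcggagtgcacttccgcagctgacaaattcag
Nr4a1, chr15:101266596-101266845, plus strand: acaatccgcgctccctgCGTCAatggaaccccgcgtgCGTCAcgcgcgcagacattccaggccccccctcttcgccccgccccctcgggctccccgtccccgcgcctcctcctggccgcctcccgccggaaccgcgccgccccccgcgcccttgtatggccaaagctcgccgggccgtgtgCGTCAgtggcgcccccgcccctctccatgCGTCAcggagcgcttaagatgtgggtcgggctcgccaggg
Fos held 2 half-sites, at -129 and -66 from the start, and a TATA match at -33. Jun held the CRE-like element TGACATCA at -45. Junb held 1 half-site at -106, and Nr4a1 held 4, at -233, -213, -69 and -40. Its window lies inside the annotated gene, before an internal start. In the windows not shown, Dusp1 held the element TGACGTCA at -143, which contains a half-site on either strand, and another half-site at -191. Fosb held 1 half-site at -60, Atf3 1 at -7, and Zfp36 held a CArG box, the element bound by serum response factor, at -58. Over 32851 mouse promoters of the same length, searched on both strands, 17.8% held a half-site, 7.49% a CRE-like element, 6.75% the AP-1 motif TGANTCA, 1.47% a CArG box and 12.4% a TATA match. Among the 8 matched genes 6 held a half-site, 2 a CRE-like element, 0 the AP-1 motif, 1 a CArG box and 1 a TATA match. A match is a description of the letters and was not tested as a site.

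Libraries were of 3′ tags, with totals of 931496 to 7535053 counts for hepatocytes and 596380 to 5128587 for macrophages. The 10 genes were well covered, with at least 31 counts in every hepatocyte library and at least 87 in every macrophage library, and together they took 0.147% to 0.562% of all counts in hepatocytes and 0.820% to 2.00% in macrophages. Levels are given as CPM, which here are counts scaled by library size times a normalising (TMM) factor. Of the defining markers, Alb lay between 31026 and 75319 CPM in hepatocytes. In macrophages Clec4f lay between 671 and 3164 and Adgre1 between 250 and 1115. Macrophage libraries also held hepatocyte messages, with Alb between 228 and 19759 CPM. The sequencing files fell into 2 numbered series, and the first held control libraries only: hepatocytes of mice 2, 7, 8, 12 and 15, and macrophages of mice 8 and 11. For the hepatocytes of mouse 15 and the macrophages of mouse 11, both treated with CCl4, 1 label reads knockout, against a control genotype in the others. Both were kept as controls, and values without them are given where a result rests on them. In bulk samples fewer cells of a type and less RNA per cell cannot be told apart.

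Macrophages carried more of most of these messages than hepatocytes (CPM scaled jointly over both tables, mean ± SD). In control mice without CCl4, 9 of the 10 genes were higher in macrophages, against 34.3% of all 12054 genes tested (edgeR quasi-likelihood F test with Benjamini-Hochberg adjustment, used for every adjusted p below). The largest difference was that of Dusp1, with 2857 ± 544 CPM in 4 macrophage libraries and 289 ± 165 in 6 hepatocyte libraries (log2 fold change 3.30, SE 0.340, adjusted p = 9.02e-10), or 9.87-fold. Nr4a1, an orphan nuclear receptor, stood at 828.8 ± 119 against 106 ± 44.4 CPM, 7.76-fold higher. Between these cells Fosb was 4.13-fold, Junb 3.80-fold, Zfp36 3.39-fold, Egr1 2.82-fold and Atf3 2.47-fold higher, and for these 7 genes the 2 groups did not overlap (22.4% of all genes were higher in macrophages without overlap). Ier2 (1.98-fold) and Fos (1.79-fold, adjusted p = 0.0399) were higher with overlapping ranges. The call on Fos was lost when the mouse was used as a block (adjusted p = 0.0613), without the filter on low counts (0.0948), in the second file series alone (0.107) and when any 1 of 5 libraries was left out. These were the hepatocytes of mice 6, 7 and 19 and the macrophages of mice 8 and 9, with adjusted p between 0.0660 and 0.170. Jun was the exception, at 1556 ± 338 CPM in macrophages and 1178 ± 527 in hepatocytes. It did not pass (log2 fold change 0.40, adjusted p = 0.226), though it did in the second file series alone (0.83, adjusted p = 0.0489). For Jun the overlap of the 2 groups depended on the joint scaling. Scaled by library total alone, Jun read 1309 to 2346 in macrophages and 245 to 1118 in hepatocytes, without overlap. On that scale Fos (1171 to 3084 against 317 to 1017) and Ier2 (184 to 502 against 68.1 to 178) did not overlap either. The difference between the cell types was not tested on that scale.

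**Figure D1:**
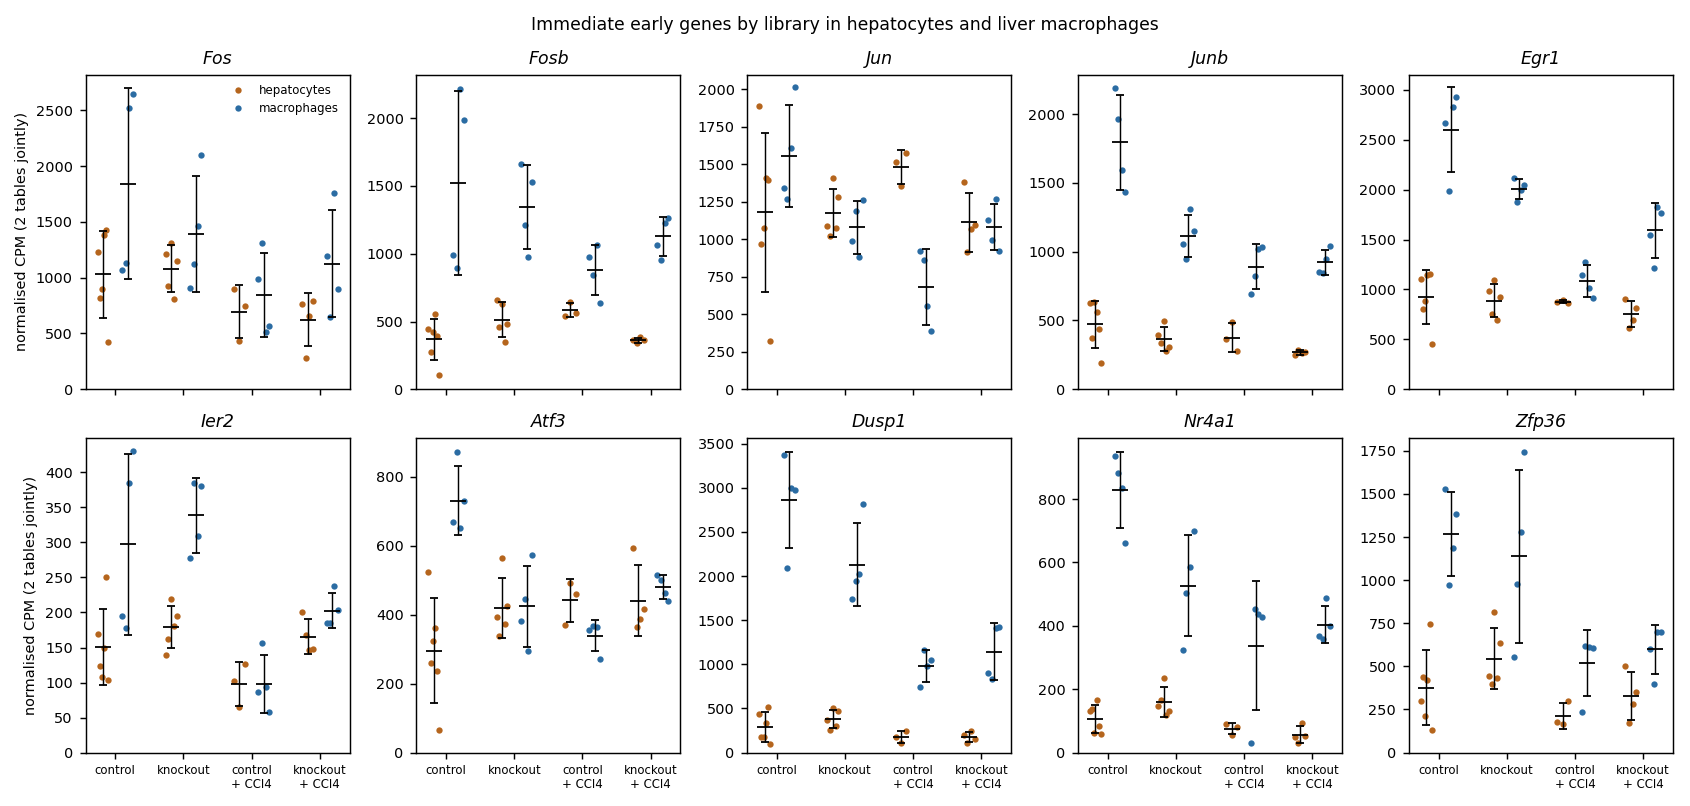
Each panel plots 1 gene, with CPM normalised over both tables on the y axis and the 4 conditions on the x axis. Points are libraries (hepatocytes brown, macrophages blue), dashes are means and bars are SD. Dusp1, Nr4a1 and Junb of macrophages sit above hepatocytes in most conditions, whereas Jun of macrophages after CCl4 in control mice sits below hepatocytes.

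The other conditions held the same order for fewer genes. Without CCl4 in knockout mice 7 genes were higher in macrophages (32.1% of all genes), from Ier2 (log2 fold change 0.92) to Dusp1 (2.48), while Fos, Jun and Atf3 did not pass. Of these 7, Zfp36 lost its call without the macrophages of mouse 21 (log2 fold change 0.78, adjusted p = 0.102) or without the filter on low counts (0.0510). After CCl4 in knockout mice 5 genes were higher (26.8% of all genes), namely Fosb, Junb, Egr1, Dusp1 and Nr4a1. With the mouse as a block, Fos (0.86, adjusted p = 0.0176) and Zfp36 (0.95, adjusted p = 0.00912) passed as well. After CCl4 in control mice 4 genes were higher in macrophages (24.1% of all genes), Junb, Dusp1, Nr4a1 and Zfp36. The call on Zfp36 was lost without the hepatocytes of mouse 12 (adjusted p = 0.0823) or of mouse 15 (adjusted p = 0.0881). It was lost as well without the filter on low counts (0.0696), with the file series as a term (0.0631) and in the second file series alone (0.263). In that condition Jun alone was lower in macrophages (22.4% of all genes were), with 681 ± 252 CPM in 4 macrophage and 1480 ± 113 in 3 hepatocyte libraries (log2 fold change -1.12, SE 0.339, adjusted p = 0.00703). Its groups did not overlap, and 24.5% of all genes were lower in macrophages without overlap. Scaled by library total alone, the Jun groups overlapped, with up to 1237 in macrophages and from 1190 in hepatocytes. Ordered by mean level over the 8 groups, macrophages of control mice without CCl4 came first for 9 genes. For Ier2 they came second to macrophages of knockout mice without CCl4, at 297 ± 129 against 339 ± 53.0 CPM, which overlapped. Neighbours in these orders overlapped for all of Fos, Fosb, Ier2, Nr4a1 and Zfp36. For the other genes a gap without overlap lay below untreated control macrophages (Junb and Atf3), between knockout macrophages without and with CCl4 (Egr1 and Dusp1), between knockout and control macrophages after CCl4 (Jun), and between control macrophages after CCl4 and the next hepatocyte group (Junb and Dusp1).

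The clearest change came 48 h after CCl4 in macrophages of control mice, where 7 of the 10 genes fell and the other 3 had negative log2 fold changes (4 libraries against 4). Over all 10815 genes tested, 6.39% were called lower. The median log2 fold change of the 10 genes was -1.18, beside -0.03 for all genes tested. For 8 of the 10 genes no library after CCl4 reached the lowest library without it, as for 9.61% of all genes tested. From here on CPM are scaled within 1 cell type.

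Among the AP-1 subunits, Jun (chromosome 4, 95049034 to 95052222, GRCm38) read 1684, 1640, 1959 and 2532 CPM in mice 6, 7, 8 and 9 without CCl4, and 1158, 1098, 737 and 535 in mice 11, 12, 15 and 16 after it. Every value after CCl4 lay below every value without it, and Jun fell by 1.15 in log2 units (SE 0.252, adjusted p = 0.00586). Junb (chromosome 8, 84974484 to 84978718) went from 2753, 2546, 1942 and 1806 CPM to 874, 1042, 1358 and 1413, a fall by 0.95 (SE 0.221, adjusted p = 0.00887), again with no overlap. Atf3 (chromosome 1, 191170296 to 191218039), a stress-induced repressor of inflammatory genes in macrophages, read 841, 1130, 796 and 918 CPM without CCl4 and 446, 465, 486 and 370.5 after it. It fell by 1.06 (SE 0.208, adjusted p = 0.00266). Fos and Fosb were the AP-1 genes that did not pass. Fos (chromosome 12, 85473890 to 85477273) had 1348, 1468, 3071 and 3329 CPM without CCl4 and 1241, 1663, 689 and 781 after it (log2 fold change -1.08, SE 0.393, adjusted p = 0.0781). Mouse 12 lay above mice 6 and 7, so the groups overlapped, and Fos passed without the macrophages of mouse 12 (adjusted p = 0.0442) or without the filter on low counts (0.00151). Fosb (chromosome 7, 19302696 to 19310051) had 1244, 1160, 2704 and 2500 CPM and then 1233, 1075, 1421 and 874 (log2 fold change -0.72, adjusted p = 0.0956), with mice 6 and 7 again in the overlap. Fosb passed without the macrophages of mouse 7 (adjusted p = 0.0480).

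Of the other transcription factors, Egr1, a zinc finger factor of macrophage differentiation, fell by 1.21 (SE 0.208, adjusted p = 0.00101), from 3358, 2578, 3448 and 3681 CPM to 1438, 1623, 1352 and 1253. The highest library after CCl4 lay below the lowest without it. Ier2 (chromosome 8, 84661331 to 84662852), a small nuclear regulator, read 245, 231, 470 and 542 CPM without CCl4 and 110, 198, 124 and 79.2 after it, a fall by 1.55 (SE 0.299, adjusted p = 0.00233). Nr4a1 (chromosome 15, 101254269 to 101274795), which restrains inflammatory activation of macrophages, had 1177, 1145, 1019 and 832 CPM without CCl4 and 39.0, 575, 586 and 586 after it. Mouse 11, a library of the first file series with conflicting labels, stood far below the other 3. Nr4a1 did not pass with it (log2 fold change -1.23, SE 0.518, adjusted p = 0.129) and did without it (-0.84, adjusted p = 0.0482). With mouse 11 kept it passed without the filter on low counts (-1.20, adjusted p = 0.000369) and with the file series as a term (-1.62, adjusted p = 0.0446).

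Both feedback genes fell too. Dusp1 (chromosome 17, 26505590 to 26562128) went from 4241, 2705, 3656 and 3741 CPM to 929, 1474, 1310 and 1438, a fall by 1.48 (SE 0.265, adjusted p = 0.00138), or 2.79-fold. Zfp36 (chromosome 7, 28376784 to 28380253) read 1924, 1258, 1447 and 1744 CPM without CCl4 and 294, 787, 817 and 832 after it, and fell by 1.23 (SE 0.351, adjusted p = 0.0283). Neither gene had overlapping groups, and the lowest Zfp36 value was again mouse 11. The Zfp36 call was lost without mouse 11 (log2 fold change -0.97, adjusted p = 0.0695), mouse 6 (-1.12, adjusted p = 0.0743) or mouse 9 (-1.18, adjusted p = 0.0592), and in the second file series alone (-1.01, adjusted p = 0.0876). The other 6 calls (Jun, Junb, Egr1, Ier2, Atf3 and Dusp1) held under each alternative run, leaving out each library included.

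**Figure D2:**
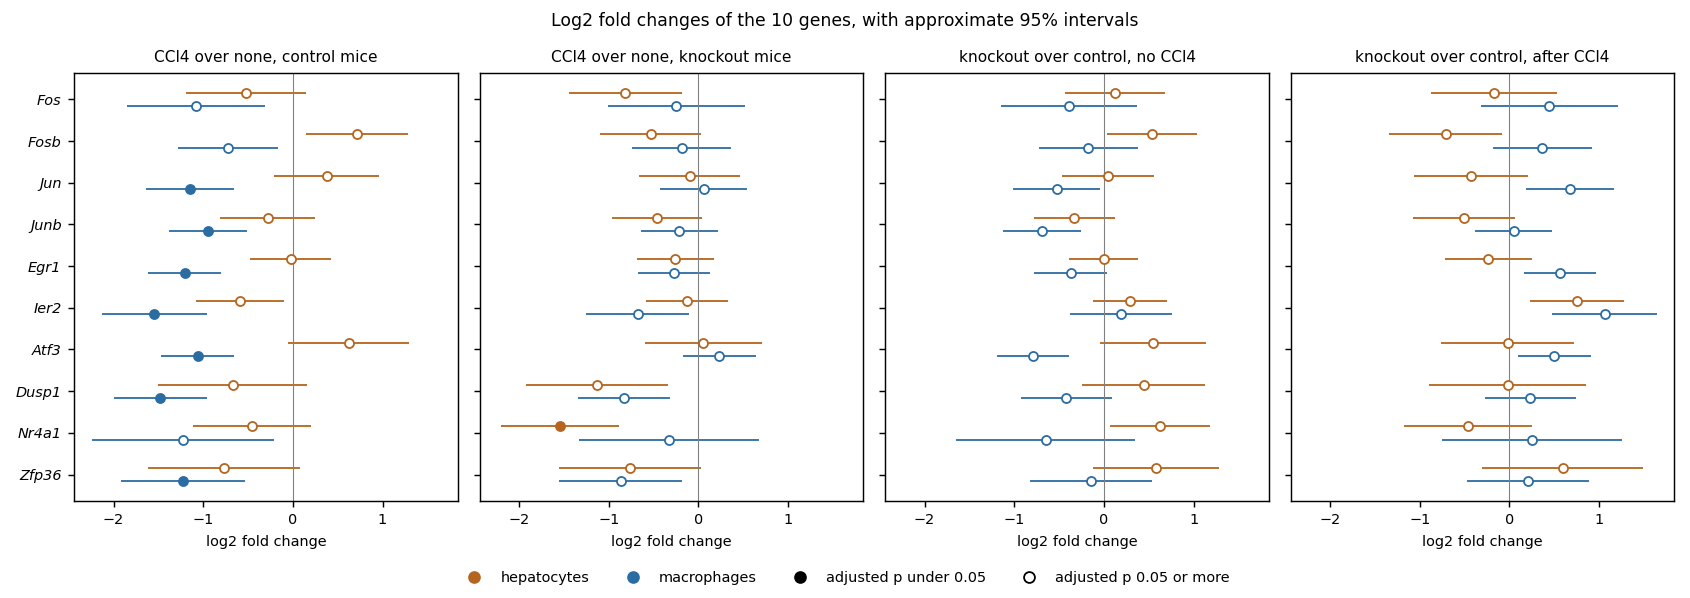
Points are log2 fold changes (x axis) of the 10 genes (y axis) in 4 comparisons, hepatocytes in brown and macrophages in blue, filled where the adjusted p was under 0.05, with approximate 95% intervals. The 7 filled macrophage points after CCl4 in control mice lie between -1.55 and -0.95, and the only other filled point is Nr4a1 of hepatocytes after CCl4 in knockout mice at -1.54.

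Of 40 other early response genes tested in these macrophages, 12 fell, 1 rose and 27 did not pass, with a median log2 fold change of -0.59. Beside this and the lists below, 6.39% of all 10815 genes tested were called lower, and 1423 were called in either direction. Btg2, an antiproliferative early gene, fell by 2.12 (SE 0.281, adjusted p = 0.000108), from 713 to 1333 CPM without CCl4 to 182 to 363 after it. Klf4, a zinc finger factor, fell by 1.85 (adjusted p = 0.000344), Zfp36l1, a relative of Zfp36, by 1.35 (adjusted p = 0.000478), and Rhob, a small GTPase, by 1.27 (adjusted p = 0.00202). Without mouse 11 the list gave 10 lower and 1 higher. Among 22 kinases and factors upstream of these genes only Mapk3, which encodes ERK1, passed, and it rose by 0.89 (SE 0.188, adjusted p = 0.00431). Of 11 tested messages that ZFP36 is known to bind, Il6 fell by 2.74 (adjusted p = 0.000411) and Il1b by 1.12 (adjusted p = 0.0110), and the other 9 did not pass. Of 12 heat shock genes, Dnaja1 fell by 1.22 (adjusted p = 0.0135) and Dnajb1 by 1.20 (adjusted p = 0.0492). Leaving out 1 library brought the heat shock calls to between 0 and 2.

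Markers of other cells moved with this comparison. The summed level of 10 Kupffer cell markers lay between 16719 and 22936 CPM without CCl4 and between 8978 and 16606 after it, and 3 of the 10 fell. Of 8 monocyte markers 5 rose, and their sum lay between 699 and 2181 CPM without CCl4 and between 1153 and 1351 after it. The 8 endothelial markers summed to between 2167 and 2956 CPM before and between 502 and 1845 after, and 2 fell. The 10 hepatocyte markers summed to between 18895 and 22898 CPM before, and 0 passed. After CCl4 they summed to 10060.5, 18886, 1294 and 669 CPM in mice 11, 12, 15 and 16. The part of these markers' cells in the fall of the immediate early genes was not tested.

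In knockout mice CCl4 left 0 of the 10 genes called in macrophages (0.878% of all genes were called in either direction). At an unadjusted p under 0.05 there were 3 (11.7% of all genes were), and DESeq2 called 0. Dusp1 had the lowest p, with 2124, 2415, 2575 and 3601 CPM without CCl4 (mice 4, 5, 20 and 21) and 1130, 1038, 1953 and 1927 after it (mice 13, 14, 17 and 18). Its log2 fold change was -0.83 (SE 0.262, adjusted p = 0.177), and its groups did not overlap. Ier2 also did not overlap, with 340 to 487 CPM and then 231 to 328, and 3.14% of all genes were lower without overlap. Zfp36 had a log2 fold change of -0.87 (adjusted p = 0.322) and passed without the filter on low counts (0.0459). The Kupffer cell markers summed to between 17975 and 24074 CPM without CCl4, and to 6410, 7159, 20598 and 24700 in mice 13, 14, 17 and 18 after it. The hepatocyte markers summed to between 5106 and 18327 CPM without CCl4, and to 38486, 33502, 3770 and 3856 in the same treated mice. The part of this cell mix in the values of the 10 genes was not tested. Jun, which fell in control mice, stood at 1356 ± 232 CPM without CCl4 and 1413 ± 239 after it (n = 4 and 4, log2 fold change 0.06, approximate 95% interval -0.43 to 0.55). Atf3 read 466, 555, 375 and 733 CPM without CCl4 and 642, 627, 638 and 597 after it (log2 fold change 0.23). For both genes the 2 groups overlapped.

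The interaction of genotype and CCl4 in macrophages, which tests whether the CCl4 effect differs between genotypes, called 0 of the 10 genes (0.194% of all genes), although all 10 log2 values were positive. At an unadjusted p under 0.05 there were 5, where 12.3% of all genes were. Atf3 came nearest, at 1.29 (SE 0.292, adjusted p = 0.0780), followed by Jun (1.21, adjusted p = 0.161) and Egr1 (0.94, adjusted p = 0.181). DESeq2 called Atf3 (adjusted p = 0.00435) and Egr1 (adjusted p = 0.0316). Atf3 also passed without the macrophages of mouse 21 (adjusted p = 0.0328) or mouse 18 (adjusted p = 0.0487). The fall in control mice was therefore not shown to differ from the values in knockout mice by the main test.

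Knockout against control macrophages gave 0 calls among the 10 genes both without CCl4 (0.166% of all genes) and after it (0.0647%). Without CCl4 an unadjusted p under 0.05 was found for 3, Jun, Junb and Atf3, and these had groups that did not overlap. Of all genes 12% had such a p, and 5.06% were lower in knockouts without overlap. Atf3 read 841, 1130, 796 and 918 CPM in controls and 466, 555, 375 and 733 in knockouts (log2 fold change -0.79, SE 0.207, adjusted p = 0.119), and DESeq2 called it alone (adjusted p = 0.0301). Junb had a log2 fold change of -0.69 (adjusted p = 0.201) and Jun of -0.53 (adjusted p = 0.415). Hepatocyte markers here summed to between 5106 and 18327 CPM in knockouts and between 18895 and 22898 in controls. Neutrophil markers summed to 213 to 339 against 78.5 to 156, and stellate cell markers to 786 to 3807 against 274 to 712. The sums of the other marker lists overlapped. After CCl4 all 10 log2 fold changes of knockout over control were positive, from 0.05 (Junb) to 1.06 (Ier2), an unadjusted p under 0.05 was found for 4 (8.05% of all genes), and DESeq2 called 0. Ier2 read 110, 198, 124 and 79.2 CPM in controls and 231, 231, 328 and 276 in knockout mice (adjusted p = 0.299), and passed without the filter on low counts (0.0303). Groups did not overlap for 3 genes, Ier2, Jun and Atf3, and 1.72% of all genes were higher in knockouts without overlap. Monocyte markers after CCl4 summed to between 542 and 916 CPM in knockouts and between 1153 and 1351 in controls, while the other marker sums overlapped. The part of the cell mix in either knockout comparison was not tested. The untreated control macrophages enter both the knockout comparison without CCl4 and the CCl4 comparison in control mice, and the treated ones enter the latter and the knockout comparison after CCl4, so these values share libraries.

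In hepatocytes of control mice CCl4 called 0 of the 10 genes, where 27.4% of all 9679 genes tested were called in either direction. An unadjusted p under 0.05 was found for 2 (37.9% of all genes), and DESeq2 called 0. Fosb was the gene whose groups did not overlap (23.8% of all genes did not), with 90.2 to 430 CPM (median 326) in 6 mice without CCl4 and 447, 532 and 456 in 3 mice after it (log2 fold change 0.71, SE 0.293, adjusted p = 0.0762). It passed without the hepatocytes of mouse 8 (adjusted p = 0.0265), mouse 19 (0.0401) or mouse 20 (0.0489). Ier2 had a log2 fold change of -0.59 (adjusted p = 0.0854) and passed without mouse 16 (adjusted p = 0.0447). Atf3 had one of 0.62 (adjusted p = 0.196) and passed without mouse 2 (adjusted p = 0.0458). Egr1 stood at 730 ± 206 CPM without CCl4 (n = 6) and at 719 ± 21.1 after it (n = 3), a log2 difference of -0.02 with an approximate 95% interval from -0.47 to 0.43. Fos (-0.52), Dusp1 (-0.67), Nr4a1 (-0.45) and Zfp36 (-0.77) had negative values whose intervals included 0. Of the 3 treated hepatocyte libraries, those of mice 12 and 15 belong to the first file series.

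Other early response genes gave another picture in these hepatocytes. Of 37 tested, 15 rose and 2 fell after CCl4 in control mice, where 1324 of all 9679 genes tested rose and 1328 fell. The same counts over all genes stand beside the other lists of this comparison. Ier5 rose by 2.43 (SE 0.336, adjusted p = 1.86e-05), Dusp5, a nuclear phosphatase of ERK, by 2.16 (adjusted p = 8.54e-05), Plk2, a kinase of the cell cycle, by 2.13 (adjusted p = 3.54e-05) and Myc by 2.28 (adjusted p = 0.000208). Without the library of mouse 15 there were 10 higher and 2 lower, and in the second file series alone 5 higher and 0 lower. Mapk3 rose by 0.70 (adjusted p = 0.0422), a call lost without mouse 15, and Hsp90aa1 (by 1.00, adjusted p = 0.00894) and Dnajb1 (by 0.65, adjusted p = 0.0222) rose among 12 heat shock genes. Of 9 messages known to be bound by ZFP36, 6 rose, with Ccl3 by 3.42 (adjusted p = 0.00141) and Tnf by 3.27 (adjusted p = 0.00249). In the second file series alone the heat shock and ZFP36-bound lists each had 0 calls. Ccl3 and Tnf are known as messages of myeloid cells. Markers of several other cells moved with this comparison. The 10 Kupffer cell markers summed to between 10.6 and 208 CPM in control hepatocytes without CCl4 and between 322 and 415 after it, and 4 of the 10 rose. Of 7 stellate cell markers tested 4 rose, with sums over all 8 listed of 13.2 to 342 CPM without CCl4 and 341 to 986 after it. Of 6 biliary markers tested 2 rose and 1 fell, with sums over all 8 listed of 49.9 to 114 CPM and then 91.0 to 255. The part of RNA from other cells in these changes was not tested.

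The biliary knockout without injury called 0 of the 10 genes in hepatocytes, against 7.87% of all genes (5 knockout and 6 control mice). At an unadjusted p under 0.05 there were 2 (25.8% of all genes were), Nr4a1 (log2 fold change 0.63, SE 0.283, adjusted p = 0.169) and Fosb (0.54, SE 0.257, adjusted p = 0.190), and DESeq2 called 0. All 10 genes had overlapping groups, and 3.53% of all genes did not overlap. Egr1 differed by less than 0.01 on the log2 scale, with an interval from -0.39 to 0.38. Of all 9679 genes tested, 449 rose in this comparison. Among the other early response genes 5 of 37 rose. Myc rose by 2.71 (adjusted p = 0.000271) and Ccn1, a matricellular protein whose gene is a known YAP target, by 2.22 (adjusted p = 0.000821). Plk2 rose by 2.04 (adjusted p = 0.000413) and Tnfaip3 by 2.73 (adjusted p = 0.0107). Of the ZFP36-bound messages 4 of 9 rose, and 0 did in the second file series alone. The Kupffer cell markers again rose, 7 of 10, with sums of 134 to 1322 CPM in knockout against 10.6 to 208 in control hepatocytes. Of 6 biliary markers tested 2 rose, with sums over all 8 listed of 86.0 to 317 CPM in knockout and 49.9 to 114 in control hepatocytes. Of 7 stellate cell markers tested 1 rose, as did 1 of 8 endothelial markers. The part of RNA from other cells in the changes without CCl4 was not tested. After CCl4, knockout against control hepatocytes called 0 of the 10 genes as well (0.176% of all genes), with 2 at an unadjusted p under 0.05 (12.8% of all genes) and 0 by DESeq2. These were Ier2 (log2 fold change 0.75, adjusted p = 0.275) and Fosb (-0.71, adjusted p = 0.371). In this comparison 3 genes, Fosb, Jun and Ier2, had groups that did not overlap, beside 11.5% of all genes. Jun was at most 1113 CPM in knockouts and at least 1114 in controls. On the joint scale its groups overlapped, with up to 1380 in knockouts and from 1354 in controls. The interaction in hepatocytes also called 0 (0.217% of all genes), with 2 at an unadjusted p under 0.05 (10.2% of all genes), of which Fosb had the lower p (-1.25, SE 0.412, adjusted p = 0.226), and 0 by DESeq2.

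Nr4a1 was the gene that passed in hepatocytes. In knockout mice it read 126, 138, 191, 94.0 and 105 CPM without CCl4 (mice 4, 5, 10, 20 and 21) and 40.7, 24.0, 75.1 and 41.5 after it (mice 13, 14, 17 and 18). No treated library reached the lowest untreated one, as for 6.37% of all genes. It fell by 1.54 in log2 units (SE 0.334, adjusted p = 0.00417), where 6.84% of all genes fell. All 9 libraries belong to the second file series, and the call held under each alternative run. Dusp1 had the next lowest p, with 217 to 406 CPM and then 86.7 to 198 and no overlap (log2 fold change -1.14, SE 0.404, adjusted p = 0.0720), and DESeq2 called it (adjusted p = 0.0413). In the fit of these 2 groups alone Dusp1 passed too (adjusted p = 0.0105), as it did without the hepatocytes of mouse 9 (0.0472) or mouse 19 (0.0320). Fos likewise did not overlap, at 647 to 1055 CPM and then 229 to 632 (log2 fold change -0.82, adjusted p = 0.103). Kupffer cell markers summed to between 134 and 1322 CPM without CCl4 and between 133 and 270 after it in these mice, and their part in the Nr4a1 change was not tested.

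Tested directly, the CCl4 effect in control mice was lower in macrophages than in hepatocytes for 3 of the 10 genes, where 3.90% of all genes were called lower. The difference was -1.68 on the log2 scale for Atf3 (SE 0.441, adjusted p = 0.0227), -1.52 for Jun (SE 0.442, adjusted p = 0.0400) and -1.19 for Egr1 (SE 0.338, adjusted p = 0.0351). All 10 differences were negative, with a median of -0.90 beside -0.20 for all genes tested. Fosb came next (-1.45, adjusted p = 0.0544) and passed with RLE factors (0.0419) or the file series as a term (0.0392). These 3 calls depended on single libraries. None of the 3 was called without the hepatocytes of mouse 15, which carry conflicting labels, or of mouse 16. Atf3 alone was called without the hepatocytes of mouse 12 or the macrophages of mouse 8, 9, 15 or 16, while Jun was lost without the hepatocytes of mouse 6 and Egr1 without the macrophages of mouse 6. Without both libraries of conflicting labels the differences were -1.61 for Atf3 (adjusted p = 0.0812), -1.76 for Jun (adjusted p = 0.0553) and -1.20 for Egr1 (adjusted p = 0.0909). With the mouse as a block Atf3 and Jun passed and Egr1 did not (-1.12, adjusted p = 0.0806). Without the filter on low counts Jun (adjusted p = 0.0698) and Atf3 (adjusted p = 0.0526) were lost, and in the second file series alone Jun (-2.20, adjusted p = 0.102) and Egr1 (-1.38, adjusted p = 0.241). In knockout mice the same difference called 0 of the 10 genes (0.0415% of all genes), with 0 at an unadjusted p under 0.05 (10.2% of all genes).

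Within groups the levels of the 10 genes were compared between libraries. Taking each library's log2(CPM + 1) minus its group mean, all 45 pairs of genes correlated positively over 18 hepatocyte libraries (median Pearson r 0.645, from 0.0122 for Junb with Ier2 to 0.935 for Jun with Atf3). These libraries share the level of 1 mouse each across genes, and mouse 19 weighed on the result. That control mouse without CCl4 had the lowest Fos, Fosb, Jun, Junb, Egr1, Atf3, Dusp1 and Zfp36 of its 6, lay 1.17 log2 units below its group on average, and had 0 of the 10 genes above the group mean. Its Jun read 271 CPM where the other 5 lay between 782 and 1459. Its 7 neutrophil markers summed to 50.9 CPM against 0.425 to 1.43 in those 5, its Kupffer cell markers to 208 against 10.6 to 204, and its heat shock genes to 3775 against 3266 to 3744. The part of these in the low values was not tested. Without mouse 19, 39 of 45 pairs were positive (median r 0.423, from -0.364 to 0.798).

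**Figure D3:**
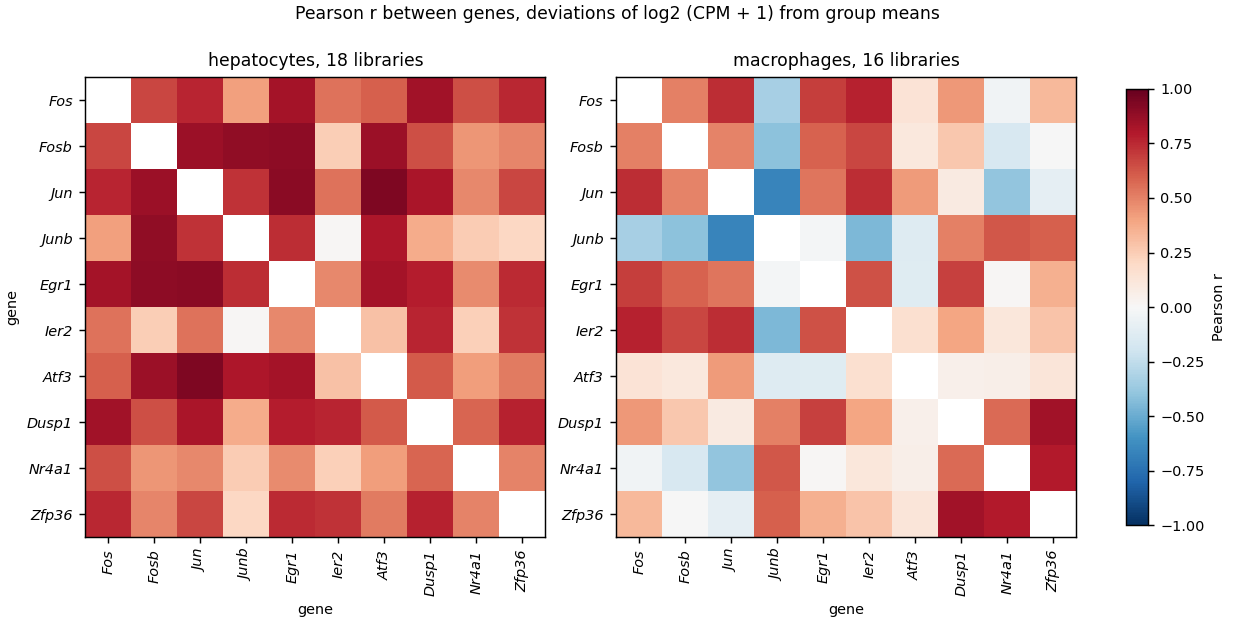
Colour gives Pearson r between 2 genes (rows and columns) of the deviations from group means of log2(CPM + 1), over 18 hepatocyte libraries on the left and 16 macrophage libraries on the right. All 45 hepatocyte pairs are positive, while in macrophages Junb is negative with Jun, Fos, Fosb and Ier2.

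In macrophages 33 of 45 pairs were positive (median r 0.286). Without mouse 11, 38 of 45 were (median r 0.343), and 16 pairs had an r over 0.5, beside 17 in hepatocytes without mouse 19. The difference between the cell types was not tested. Dusp1 and Zfp36 had the highest r (0.836), then Nr4a1 and Zfp36 (0.793) and Fos and Ier2 (0.766). Junb ran against Jun (-0.662), Ier2 (-0.451) and Fosb (-0.409). Part of this can be seen among the 4 control mice without CCl4. Mice 6 and 7 had Fos at 1348 and 1468 CPM and Ier2 at 245 and 231, where mice 8 and 9 had Fos at 3071 and 3329 and Ier2 at 470 and 542. Junb was the other way round, at 2753 and 2546 CPM in mice 6 and 7 and 1942 and 1806 in mice 8 and 9. Heat shock genes, singled out here after their values were seen, were higher in mice 6 and 7. Hspa1a, the inducible HSP70, read 1311 and 509 CPM there and 439 and 342 in mice 8 and 9, and Dnajb1 371 and 184 against 88.2 and 81.1. Monocyte markers summed to 1284 and 2181 CPM in mice 6 and 7 and to 699 and 798 in mice 8 and 9. Biliary markers summed to 172 and 185 against 84.0 and 119. Sums of the other marker lists did not part these mice in this way. The part of any of these was not tested. Across all libraries the summed heat shock genes had an r with the mean deviation of the 10 genes of -0.359 in macrophages (n = 16) and 0.010 in hepatocytes (n = 18). Summed markers of other cells were set beside the same deviation. In macrophages r was -0.472 for monocyte, -0.322 for hepatocyte, 0.332 for neutrophil, 0.255 for Kupffer cell and -0.107 for endothelial markers. In hepatocytes it was -0.811 for neutrophil, -0.644 for Kupffer cell, -0.598 for endothelial, 0.022 for monocyte and 0.010 for hepatocyte markers. Without mouse 19 the neutrophil value in hepatocytes was -0.357, the Kupffer cell value -0.563 and the endothelial value -0.597. The monocyte value there was 0.108 and that of hepatocyte markers -0.312. Without mouse 11 the monocyte value in macrophages was -0.552, the hepatocyte value -0.196 and the neutrophil value 0.186. The Kupffer cell value there was 0.261, and the endothelial value changed sign to 0.208. The heat shock value was 0.238 in hepatocytes without mouse 19 and -0.437 in macrophages without mouse 11. The summed other early response genes had an r of 0.789 in hepatocytes (0.407 without mouse 19) and 0.579 in macrophages (0.440 without mouse 11). All are descriptions over libraries that share their depth and their mix of cells.

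By the same measure, the 5 other genes most like the mean of the 10 in hepatocytes were Wdfy1 (r 0.917), Errfi1 (0.899), Cpsf7 (0.877), Clk1 (0.863) and 4632427E13Rik (0.851), out of 7074 genes of at least 10 CPM. Errfi1, a feedback inhibitor of the EGF receptor, is itself an early response gene. In macrophages they were Pnrc1 (0.900), Mndal (0.885), Zscan26 (0.867), Secisbp2l (0.842) and Prkci (0.832), out of 8958 genes. These are ranks over 18 and 16 libraries, given as a description. The hepatocyte ranks include mouse 19, with a mean deviation of -1.17, and the macrophage ranks include mouse 11. The ranks were not repeated without these libraries, so genes low in mouse 19 alone cannot be told apart here.

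Both cell types were available from 15 mice. Over these, the mean deviation of the 10 genes in hepatocytes and in macrophages had the same sign in 12 mice (Pearson r 0.473, Spearman rho 0.364). Without mice 7 and 14, whose hepatocyte deviations lay farthest from their median, r was 0.195. Fosb (r 0.671, and 0.613 without the 2 mice farthest by its hepatocyte deviation) and Fos (0.627, then 0.488) gave the highest values. Junb gave the lowest (-0.255). Points of 1 mouse share the animal and its perfusion, and no test was made.

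**Figure D4:**
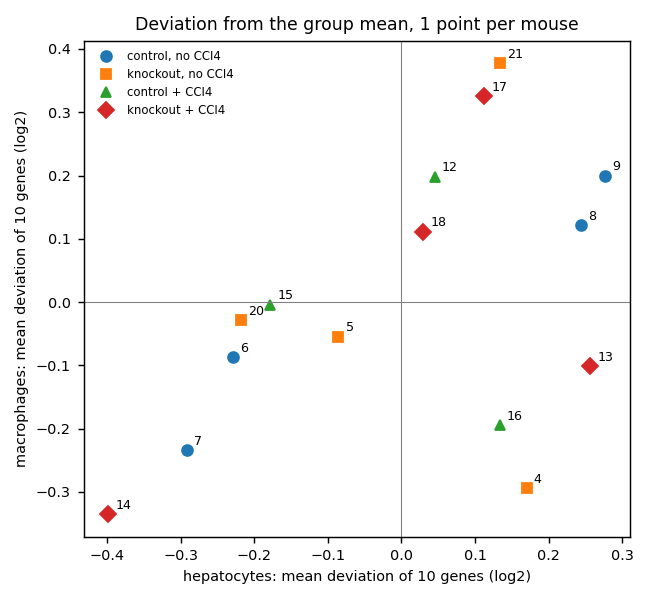
Each of the 15 points is a mouse (number beside it), with the mean deviation of the 10 genes from the group mean in log2 units, hepatocytes on the x axis and macrophages on the y axis, and marker shapes for the 4 conditions. Mouse 14 lies lowest in both cell types, and 12 of 15 mice lie in the quadrants of equal sign.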

How the data were processed

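The authors deposited whole-number counts of 3′ tags (QuantSeq FWD) per gene, 1 table per cell type. Per the submitters' processing notes, Trimmomatic 0.39, HISAT2 2.1.0 and GRCm38 were used. For the counting tool, annotation and strand the sources used here give nothing, so antisense or overlapping genes could not be told apart. Groups follow the labels of genotype and treatment, and the number in a title was read as the mouse.

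Each table was fitted whole with edgeR 4.0.16 (R 4.3.3): filterByExpr, TMM factors, 4 groups and quasi-likelihood F tests, with Benjamini-Hochberg adjustment over all genes tested and a threshold of 0.05. Macrophages and hepatocytes were compared in 1 fit of both tables over 8 groups. Shares of all genes at an unadjusted p under 0.05, or in groups without overlap, were counted in the same fits. Approximate 95% intervals come from the SE and cover the spread between libraries only. The script was tested on simulated data.

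The 10 genes and all lists were chosen with earlier results of these data known. From each other list the called genes of lowest p were named, up to 4 per comparison. The 5 genes of highest likeness were those of highest r with the mean of the 10, among genes of at least 10 CPM. Jund and Egr2 were not analysed here.

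Alternatives were DESeq2 1.42.0, RLE factors, no filter on low counts, the 2 groups alone, the file series as a term, the second file series alone, leaving out the libraries with conflicting labels, each library in turn, and the mouse as a block. The older form of the quasi-likelihood dispersion was added after seeing the data. Pairing by mouse comes from the title numbers of 15 mice with both cell types. Over 6429 genes, deviations of the 2 cell types of a mouse had a median r of 0.147 (from -0.044 to 0.428), with 10 of 15 over 0.1. All 58 pairs of replicates differed beyond sampling noise (chi-square over its degrees of freedom, 5.16 to 42.5), and none was merged.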

Additional observations from a re-analysis of the deposited data

Results flagged for a closer look

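Among 70 sets of values (1 gene in a group of 4 to 6 libraries), the macrophages of mouse 11, a control after CCl4 with conflicting labels, stood far from the others of their group for 2 genes. Nr4a1 read 39.0 CPM there and 575, 586 and 586 in the other 3 libraries, a gap of 0.979 of the group's range. Zfp36 read 294 CPM and 787, 817 and 832 in the others, a gap of 0.917. Chance flags about 1 in 20 such sets.

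The CCl4 effect in control mice differed between macrophages and hepatocytes, by the test of the difference itself, for Jun (-1.52), Egr1 (-1.19) and Atf3 (-1.68), all on the log2 scale and lower in macrophages. All 3 calls were lost without both libraries of conflicting labels (adjusted p 0.0553 for Jun, 0.0909 for Egr1 and 0.0812 for Atf3, edgeR), and also without the hepatocytes of mouse 15 or of mouse 16 alone. Egr1 was lost with the mouse as a block (adjusted p = 0.0806).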

How the results depend on the processing

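Of 4940 values of the 10 genes under the alternatives, 4849 kept their direction and their side of the threshold (or moved by less than the error), 46 lost a call, 40 gained one, 5 moved and 0 reversed. DESeq2 called 2 of the 10 genes after CCl4 in knockout hepatocytes (main 1), 1 in knockout macrophages without CCl4 (main 0) and 2 in the macrophage interaction (main 0). The 2 groups alone also gave 2 in knockout hepatocytes. Without the filter on low counts there was 1 call in knockout against control macrophages after CCl4 and 1 after CCl4 in knockout macrophages (main 0 in both), and 9 after CCl4 in control macrophages (main 7, with Fos and Nr4a1 gained; 6 in the second file series). Calls of macrophages over hepatocytes lost without the filter were Fos in control mice and Zfp36 in knockout mice, both without CCl4, and Zfp36 in control mice after it. The difference between cell types in control mice, with 3 calls, had 1 without the filter, 1 in the second file series alone and 0 without the libraries of conflicting labels. The cause was not tested. In the second file series control hepatocytes after CCl4 are mouse 16 alone, assumed to vary like the other groups.

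Leaving out 1 library in turn gave 0 to 1 calls in control hepatocytes after CCl4, 1 to 2 in knockout hepatocytes, 6 to 8 in control macrophages and 0 to 1 in the macrophage interaction. Macrophages over hepatocytes gave 8 to 9 (control, no CCl4), 6 to 7 (knockout, no CCl4), 4 to 5 (control, CCl4) and 5 to 7 (knockout, CCl4), and the difference in control mice 0 to 4. With the mouse as replicate block, counts were 8 in control mice without CCl4, 7 in knockout mice after CCl4 and 2 for the difference in control mice, and the block changed no other count.

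Counts over all genes moved by over 1.5 times in 12 of 16 comparisons. In hepatocytes the lowest came in the second file series alone: 502 against 2652 (CCl4, control), 50 against 762 (knockout, no CCl4) and 1 against 17 (knockout after CCl4). The last reached 51 with DESeq2, and the interaction 0 with the older dispersion and 113 without the filter (main 21). In macrophages the highest counts came without the filter: 677 against 18 (knockout, no CCl4), 392 against 7 (knockout after CCl4), 431 against 95 (CCl4, knockout) and 697 against 21 (interaction). The lowest were 8 (older dispersion), 0 (second series), 14 (2 groups alone) and 7 (second series) in the same order. CCl4 in control macrophages gave 867 in the second series (main 1423). In the second series, macrophages over hepatocytes after CCl4 in control mice gave 3442 (main 5600) and the difference in control mice 31 (main 599). In knockout mice that difference had 2 without the filter and 10 with RLE factors (main 5).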
